A study of Danio rerio with 6 samples.

Results

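The genes described here encode the enzymes of glycolysis, glycogen phosphorylase, the creatine kinases and the PFKFB enzymes that regulate glycolysis. They were chosen by name, as the rows of the count table whose symbol begins like that of one of these enzymes, and 48 of 13466 rows matched. Of the 48, 46 are counted here as such enzymes, among them *ldhd*, a D-lactate enzyme outside glycolysis. The other 2, *pgam5* (a mitochondrial protein phosphatase) and *pkmyt1* (a kinase that inhibits Cdk1), share only the first letters of a symbol with them. They are kept in the counts of members and named where they matter.

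Glycolysis splits glucose into pyruvate in the cytoplasm and yields ATP without oxygen. Glycogen phosphorylase releases glucose units from stored glycogen, and creatine kinase moves phosphate between creatine and ADP, so that a muscle fibre can refill its ATP within moments. Most of these steps are served by several isozymes. In mammals ckm, sarcomeric ckmt2, eno3, pgam2, pygm, pfkm and aldoa are isozymes of skeletal muscle, though not all of them of muscle alone. Of the others, ckb, eno2 and aldoc are typical of brain, and pygl of liver. The zebrafish genes that share the names of this muscle set are called muscle-named here. Zebrafish often carry a pair of genes, marked a and b, for 1 mammalian isozyme.

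RNA-seq compared whole zebrafish embryos at 18 hpf, 3 libraries from WT embryos and 3 from homozygous *hoxb1b* mutants (*hoxb1b*-/-, allele um197), after removal of chorion and yolk. The labels give no treatment for either genotype. Each library was made from poly(A) RNA of pooled embryos. The sources used here do not state if each library had a pool of its own or if the genotypes were siblings, so p-values measure the spread between these libraries, which may be technical. Total counts were between 19139322 and 29146812 per library. Levels are given as CPM (counts per library scaled to a common total, with TMM factors), in the order of replicates 1 to 3, and means with their SD over n = 3 libraries. The log2 fold change (log2FC) is mutant over WT, with its standard error (SE). *hoxb1b* itself had 70.6, 66.4 and 70.4 CPM in WT and 85.3, 84.2 and 83.8 CPM in mutants, so its transcript was not lost and its level does not check the labels.

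A gene passed the test at an adjusted p under 0.05 and was called when its fold change also exceeded 2. Of 12471 genes tested, 32.6% passed as higher and 33.6% as lower in mutants, 1.70% were called higher and 6.66% were called lower, and the genotypes did not overlap for 68.1%. Beyond counting noise, libraries of a genotype varied by an estimated 1.85%, which lets small differences pass. Markers of muscle, neurons, blood, notochord, heart, hatching gland and yolk syncytial layer were all detected, and none of these lists was at 0 in a genotype. Since no tissue was separated, fewer cells of a type and less RNA per cell cannot be told apart.

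Transcripts of this energy pathway were lower in *hoxb1b* mutants for most members. Of the 48 members, 47 were tested, and 32 passed as lower (33.6% of all genes), 10 as higher (32.6% of all genes) and 5 did not pass. Of the 47, 14 were called lower (6.66% of all genes) and 1, *pfkfb3*, was called higher (1.70% of all genes). The median log2 fold change was -0.39 over the 47 members and -0.0034 over all genes tested. For 42 of the 47 the genotypes did not overlap (68.1% of all genes). The member not tested, *ldhbb* (a lactate dehydrogenase B gene), had 4 to 9 counts in every library. Without *pgam5* and *pkmyt1* the counts were 45 tested, 32 lower and 9 higher, of which 14 and 1 were called. When the test asked for a change beyond 2-fold (glmTreat), 13 members and 4.03% of all genes passed.

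**Figure D1:**
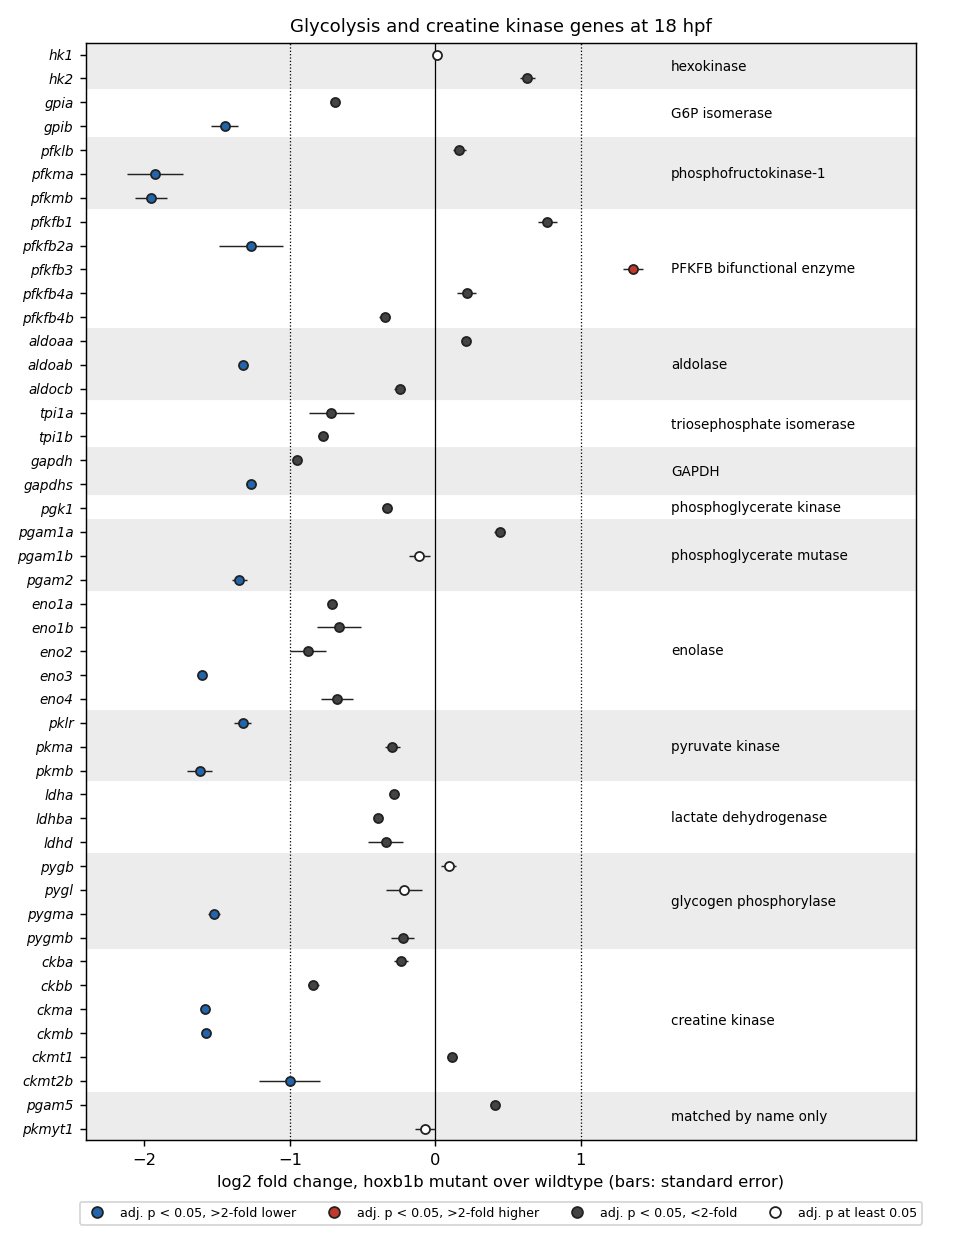
Log2 fold change, mutant over WT, of 46 of the 47 tested members, in the order of the enzyme steps. Points are edgeR estimates from 3 libraries against 3, bars are standard errors and dotted lines mark 2-fold. Blue points (14 members) lie at or beyond 2-fold lower and the red point (*pfkfb3*) beyond 2-fold higher.

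The decrease was uneven in absolute terms. Summed over the 46 enzyme genes, expression was 7751, 7573 and 7802 CPM in WT and 4943, 5031 and 4896 CPM in mutant libraries. The groups did not overlap, and the mutant mean was 0.643 of the WT mean. *ckma*, *ckmb* and *aldoab* made up most of this difference, falling together from 3307 ± 80.9 to 1145 ± 17.5 CPM. The other 43 genes summed to 4401 ± 40.3 CPM in WT and 3812 ± 50.8 CPM in mutants. This sum nets rises against falls. For example, mean *aldoaa* rose from 1176 to 1362 CPM, and mean *gapdh* fell from 439 to 227 CPM.

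Creatine kinase genes showed the largest amounts of transcript lost. *ckmb*, a gene for the cytosolic muscle isozyme, had 1617, 1531 and 1623 CPM in WT and 535, 539.9 and 522 CPM in mutant libraries. This was a 2.99-fold decrease (log2FC -1.58 ± 0.02 SE, edgeR adjusted p = 1.67e-29). The other muscle gene, *ckma*, had 1123, 1083 and 1127 CPM in WT and 373, 372 and 367 CPM in mutants (log2FC -1.58 ± 0.02 SE, edgeR adjusted p = 4.52e-30). In both genes every mutant library lay far below every WT library, and the 3 libraries of a genotype were close together. *ckma* and *ckmb* had fractional counts, so some of their reads were shared with other loci in the authors' counting. Which loci is not shown by the table, and any split between these paralogs is uncertain. In all, 25 of the 48 members had a fractional count in some library, and splits that involve them share this limit. The share of *ckma* in their sum was 40.98, 41.4 and 40.98% in WT and 41.04, 40.8 and 41.2% in mutants, and their sum fell from 2702 ± 75.7 to 903 ± 12.4 CPM.

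The creatine kinase genes not named after cytosolic muscle enzyme moved less. *ckbb*, a brain-type gene, fell from 72.4 ± 2.36 to 40.5 ± 1.27 CPM (log2FC -0.84 ± 0.04 SE, edgeR adjusted p = 9.28e-18). Its paralog *ckba* fell less (log2FC -0.24 ± 0.05 SE, edgeR adjusted p = 9.68e-05). *ckmt1*, the ubiquitous mitochondrial isozyme, rose slightly (log2FC 0.11 ± 0.03 SE, edgeR adjusted p = 0.00274). The mitochondrial isozyme of sarcomeric type, *ckmt2b*, was weakly expressed, at 1.92, 2.91 and 1.79 CPM in WT and 1.18, 1.12 and 1.05 CPM in mutants, from 23 to 66 counts per library. Its decrease lay on the 2-fold limit itself (log2FC -1.0 ± 0.21 SE, edgeR adjusted p = 0.000146). Without WT replicate 2 its log2FC was -0.74 and without mutant replicate 3 it was -0.95, and the gene was then no longer called.

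Glycogen phosphorylase, which feeds stored glucose into the pathway, differed between its muscle-named paralogs. *pygma* had 84.6, 81.6 and 82.7 CPM in WT and 30.2, 30.4 and 26.9 CPM in mutant libraries. It fell by 2.86-fold (log2FC -1.52 ± 0.04 SE, edgeR adjusted p = 5.3e-23), and its log2FC lay in the range of -1.55 to -1.45 when single libraries were omitted. *pygmb* had 10.9, 12.2 and 12.9 CPM in WT and 9.47, 11.4 and 9.79 CPM in mutants, and the groups overlapped. It passed the test (log2FC -0.23 ± 0.08 SE, edgeR adjusted p = 0.0172), but not without WT replicates 2 or 3 or mutant replicates 1 or 3, where the adjusted p from edgeR was 0.0583, 0.0893, 0.0723 and 0.0926. Neither the brain-named *pygb* (log2FC 0.09 ± 0.05 SE, edgeR adjusted p = 0.108) nor the liver-named *pygl* (log2FC -0.21 ± 0.12 SE, edgeR adjusted p = 0.127) passed.

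Hexokinase, which traps glucose in the cell as its phosphate, included no member that passed as lower. *hk1* had 175, 175 and 186 CPM in WT and 182, 182 and 177 CPM in mutants, and the groups overlapped (log2FC 0.01 ± 0.03 SE, edgeR adjusted p = 0.687). *hk2*, the hexokinase that in mammals is prominent in muscle and many growing cells, had 18.9, 19.97 and 21.1 CPM in WT and 30.4, 31.3 and 30.9 CPM in mutants and rose (log2FC 0.63 ± 0.05 SE, edgeR adjusted p = 1.01e-11). Of the related enzymes outside the name rule, the ADP-dependent glucokinase *adpgk* (log2FC 0.34 ± 0.05 SE, edgeR adjusted p = 6.25e-07) and *hkdc1* (log2FC 0.33 ± 0.08 SE, edgeR adjusted p = 0.000749) also rose.

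Both glucose-6-phosphate isomerase genes fell. *gpia* had 132, 139 and 133 CPM in WT and 81.7, 84.3 and 84.3 CPM in mutants (log2FC -0.69 ± 0.03 SE, edgeR adjusted p = 6.3e-18). *gpib* had 11.7, 11.5 and 11.9 CPM in WT and 3.76, 4.44 and 4.56 CPM in mutants (log2FC -1.45 ± 0.09 SE, edgeR adjusted p = 3.53e-14). Only *gpib* of this pair was called, and its share of their counts went from 8.19, 7.65 and 8.25% in WT to 4.4, 5.002 and 5.13% in mutants.

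Phosphofructokinase, the main control point of glycolysis, held the members with the steepest decrease. *pfkmb* had 11.4, 10.3 and 9.90 CPM in WT and 3.19, 2.37 and 2.70 CPM in mutant libraries (log2FC -1.95 ± 0.11 SE, edgeR adjusted p = 2.45e-15). *pfkma* had 4.57, 3.26 and 3.03 CPM in WT and 0.927, 0.948 and 0.979 CPM in mutants (log2FC -1.93 ± 0.19 SE, edgeR adjusted p = 7.8e-10). Both muscle-named genes thus fell nearly 4-fold without overlap, although WT replicate 1 of *pfkma* stood above the other WT libraries. The liver-named *pfklb* had 34.4, 34.6 and 33.02 CPM in WT and 37.1, 39.2 and 38.2 CPM in mutants and rose (log2FC 0.17 ± 0.04 SE, edgeR adjusted p = 0.00117).

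PFKFB enzymes make and break down a regulatory fructose bisphosphate, a different isomer from the one aldolase splits, that activates phosphofructokinase, and their genes went in opposite directions. *pfkfb3*, whose mammalian product mostly acts as the kinase and so drives glycolysis, had 9.86, 8.29 and 9.54 CPM in WT and 24, 24.4 and 22.8 CPM in mutants. It was the only member called higher, 2.57-fold (log2FC 1.36 ± 0.07 SE, edgeR adjusted p = 1.41e-16), and its log2FC lay in the range of 1.29 to 1.42 when single libraries were omitted. *pfkfb1* rose from 11.6 ± 0.483 to 19.6 ± 1.21 CPM (log2FC 0.77 ± 0.07 SE, edgeR adjusted p = 3.25e-11). *pfkfb4a* also rose (log2FC 0.22 ± 0.07 SE, edgeR adjusted p = 0.00473).

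The remaining PFKFB genes fell. *pfkfb4b* had 81.4, 73.3 and 74.9 CPM in WT and 61.8, 61.7 and 57.7 CPM in mutants (log2FC -0.35 ± 0.04 SE, edgeR adjusted p = 6.57e-09). *pfkfb2a*, whose mammalian counterpart is the heart isozyme, had 2.05, 2.07 and 1.54 CPM in WT and 0.824, 0.689 and 0.844 CPM in mutants. It was called lower (log2FC -1.26 ± 0.22 SE, edgeR adjusted p = 1.26e-05), but rested on 16 to 48 counts per library and did not pass against the 2-fold null (adjusted p = 0.685 from glmTreat). The paralogs *pfkfb4a* and *pfkfb4b* thus passed in opposite directions. The difference between them was not tested.

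Aldolase, which splits fructose bisphosphate into trioses, had paralogs that passed in opposite directions. *aldoab* had 603, 600.3 and 614 CPM in WT and 233, 252 and 241 CPM in mutant libraries (log2FC -1.32 ± 0.02 SE, edgeR adjusted p = 4.22e-27). *aldoaa* had 1184, 1144 and 1200.4 CPM in WT and 1357, 1389 and 1339 CPM in mutants and rose (log2FC 0.21 ± 0.02 SE, edgeR adjusted p = 1.6e-09). Of the counts of these paralogs, *aldoab* held 33.7, 34.4 and 33.8% in WT and 14.7, 15.3 and 15.2% in mutant libraries. Both had fractional counts, so this split is uncertain, as for *ckma* and *ckmb*. Of the zebrafish genes named after aldoa, an isozyme of mammalian muscle, only *aldoab* was lower here.

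A further aldolase gene changed little. *aldocb*, a brain-type gene, fell from 56.9 ± 1.85 to 48.2 ± 1.37 CPM (log2FC -0.24 ± 0.04 SE, edgeR adjusted p = 1.94e-06).

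Triosephosphate isomerase, which interconverts the trioses, fell less than 2-fold. *tpi1b* had 106, 116 and 114 CPM in WT and 63.7, 66.3 and 65.6 CPM in mutants (log2FC -0.77 ± 0.03 SE, edgeR adjusted p = 7.59e-18). *tpi1a*, at 3.41 CPM in WT and 2.09 CPM in mutants, also fell (log2FC -0.71 ± 0.15 SE, edgeR adjusted p = 0.000202), and neither gene was called.

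Both genes for glyceraldehyde-3-phosphate dehydrogenase, the oxidizing step, were lower in mutants. *gapdh*, widely used as a reference gene in RT-qPCR, had 440, 425 and 453 CPM in WT and 224, 232 and 224 CPM in mutant libraries. This 1.93-fold decrease (log2FC -0.95 ± 0.02 SE, edgeR adjusted p = 2.07e-23) stayed just short of the 2-fold limit, and its log2FC ranged from -0.97 to -0.93 when single libraries were omitted. *gapdhs*, named after the sperm isozyme of mammals, had 132, 125 and 128 CPM in WT and 56.6, 51.8 and 51.9 CPM in mutants and was called (log2FC -1.27 ± 0.03 SE, edgeR adjusted p = 6.25e-23). The members nearest to the limit were thus *gapdh* just short of it and *ckmt2b* just past it.

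The ATP-yielding step of phosphoglycerate kinase moved little. *pgk1* had 77.4, 74.01 and 73.02 CPM in WT and 59.2, 61.6 and 57.8 CPM in mutants (log2FC -0.33 ± 0.04 SE, edgeR adjusted p = 2.24e-09).

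In phosphoglycerate mutase, which shifts the phosphate before enolase acts, the muscle-named gene and a paralog passed in opposite directions. *pgam2* had 43.6, 43.4 and 44.4 CPM in WT and 15.6, 18.01 and 17.7 CPM in mutant libraries (log2FC -1.35 ± 0.05 SE, edgeR adjusted p = 1.4e-19). *pgam1a*, named after the brain isozyme, had 44.6, 45.2 and 44.6 CPM in WT and 61.7, 59.8 and 60.9 CPM in mutants and rose (log2FC 0.44 ± 0.04 SE, edgeR adjusted p = 9.22e-12). *pgam1b* overlapped between the genotypes and did not pass (log2FC -0.11 ± 0.07 SE, edgeR adjusted p = 0.192). The phosphatase *pgam5*, matched by its symbol alone, rose (log2FC 0.41 ± 0.03 SE, edgeR adjusted p = 3.36e-13).

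All 5 enolase genes passed as lower (33.6% of all genes), and 1 was called lower (6.66% of all genes). *eno3*, the muscle-named isozyme, had 238, 246 and 230.5 CPM in WT and 76.5, 78.4 and 79.8 CPM in mutant libraries (log2FC -1.61 ± 0.03 SE, edgeR adjusted p = 2.32e-27). *eno1a*, of the isozyme found in most tissues, had 163, 163 and 163 CPM in WT and 100.4, 103 and 96.3 CPM in mutants (log2FC -0.71 ± 0.03 SE, edgeR adjusted p = 8.69e-19). *eno1b*, the neuronal *eno2* and *eno4* (a sperm gene in mammals) each stood below 10 CPM, with log2 fold changes of -0.66, -0.87 and -0.67. No enolase gene overlapped between the genotypes, as was so for 68.1% of all genes.

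Pyruvate kinase, which makes the final ATP of the pathway, fell in all 3 genes. *pkmb* had 13.6, 13.2 and 14.7 CPM in WT and 4.53, 4.65 and 4.32 CPM in mutants (log2FC -1.62 ± 0.09 SE, edgeR adjusted p = 7.47e-16). *pklr*, named after the liver and red cell isozyme, had 31.8, 33.4 and 33.4 CPM in WT and 12.3, 14.4 and 12.7 CPM in mutants (log2FC -1.32 ± 0.06 SE, edgeR adjusted p = 6.74e-18). *pkma*, the paralog of *pkmb*, had 31.5, 30.9 and 34.8 CPM in WT and 25.3, 28.1 and 25.6 CPM in mutants and fell less (log2FC -0.30 ± 0.05 SE, edgeR adjusted p = 1.54e-05). *pkmb* held 30.2, 29.9 and 29.7% of the counts of this pair in WT and 15.2, 14.2 and 14.5% in mutants. The kinase *pkmyt1*, matched by its symbol alone, did not pass (log2FC -0.07 ± 0.07 SE, edgeR adjusted p = 0.384).

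Lactate dehydrogenase, which regenerates NAD by turning pyruvate into lactate, fell by less than 1.5-fold in its tested genes. *ldhba* had 367, 372 and 382 CPM in WT and 274, 293 and 285 CPM in mutants (log2FC -0.39 ± 0.02 SE, edgeR adjusted p = 3.59e-14). *ldha*, the isozyme of muscle in mammals, fell from 81.7 ± 0.688 to 67.3 ± 1.38 CPM (log2FC -0.28 ± 0.03 SE, edgeR adjusted p = 6.66e-09). The D-lactate enzyme gene *ldhd*, whose product does not share this role, passed (log2FC -0.34 ± 0.12 SE, edgeR adjusted p = 0.0147). It did not pass without WT replicate 1 or mutant replicates 2 or 3, where the adjusted p from edgeR was 0.119, 0.0568 and 0.068.

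**Figure D2:**
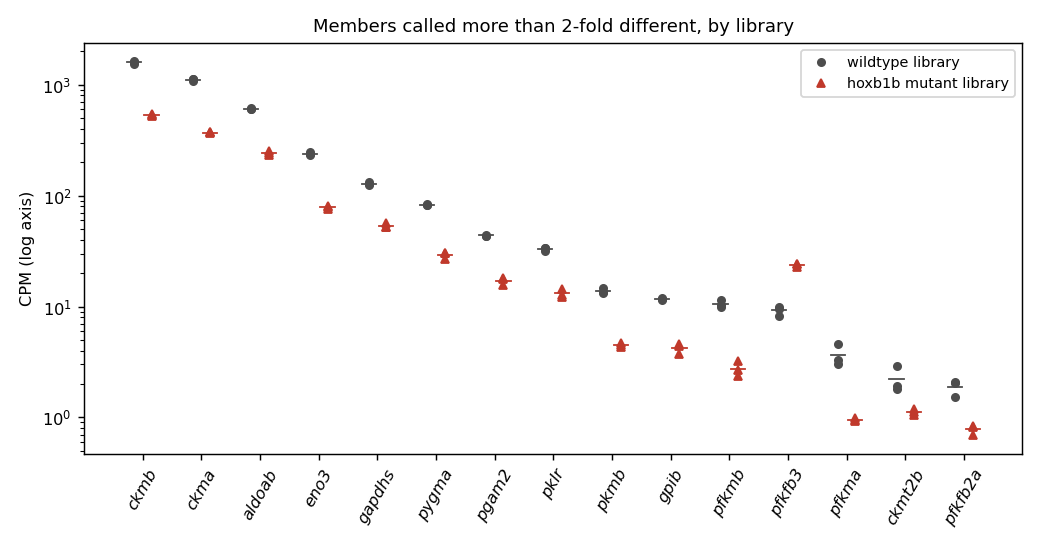
CPM on a log axis of the 15 called members in each of the 3 WT (circles) and 3 *hoxb1b* mutant libraries (triangles), with lines at the means, ordered by WT level. In 14 genes all mutant libraries lie below all WT libraries, and in *pfkfb3* they lie above.

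The muscle-named set of 11 members was picked because mammalian pfkm, aldoa, pgam2, eno3, pygm, ckm and ckmt2 are isozymes of skeletal muscle, in 6 families that also hold 14 other members. Of the 11, 10 passed as lower (33.6% of all genes) and 9 were called lower (6.66% of all genes), with a median log2 fold change of -1.52. The exceptions were *aldoaa*, which rose, and *pygmb*, which was not called. Of the 14 others in the same families, 7 passed as lower (33.6% of all genes), 4 as higher (32.6% of all genes) and 3 did not pass. Of these 14, 0 were called, and the median was -0.23. Of the 20 tested members outside these families, 15 passed as lower (33.6% of all genes) and 4 as higher (32.6% of all genes). Their median was -0.37. Of these 20, 5 were called lower (6.66% of all genes), namely *gpib*, *pfkfb2a*, *gapdhs*, *pklr* and *pkmb*. The 1 called higher (1.70% of all genes) was *pfkfb3*. The sets were chosen with earlier results known, so these counts are a description. They depend on the choice, since *pkma*, *pkmb* and *ldha*, whose mammalian counterparts also serve muscle, were not in the set. With these added after their values were seen, 10 of 14 were called lower (6.66% of all genes), with a median of -1.43. This addition left out *hk2*, also prominent in mammalian muscle, which rose (log2FC 0.63 ± 0.05 SE).

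Within each of the 6 families the muscle-named genes held a smaller share of the counts in every mutant library than in any WT library. In relative terms the fall was steepest in phosphofructokinase, from 31.7, 28.1 and 28.1% in WT to 9.99, 7.81 and 8.78% in mutants. In phosphoglycerate mutase the shares were 43.8, 43.05 and 44.4% in WT and 17.6, 20.3 and 19.9% in mutants. In both families the muscle-named share was under 0.5 of its WT value. The enolase shares were 57.2, 58.04 and 56.3% in WT and 41.1, 41.03 and 43.1% in mutants. For glycogen phosphorylase they were 75.9, 75.1 and 76.6% in WT and 54.6, 58.1 and 54% in mutants. The shares fell least in aldolase and creatine kinase, from means of 75.2% and 93.4% in WT to 70.4% and 85.0% in mutants. The aldolase share includes *aldoaa*, which rose. In creatine kinase *ckma* and *ckmb* each fell (log2FC -1.58), but they held nearly all counts of the family. A share that high falls little even when its genes fall, so the order of the families by share is not one of fold change. Such shares depend on transcript length, which was not used here, so only their change between genotypes can be read.

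**Figure D3:**
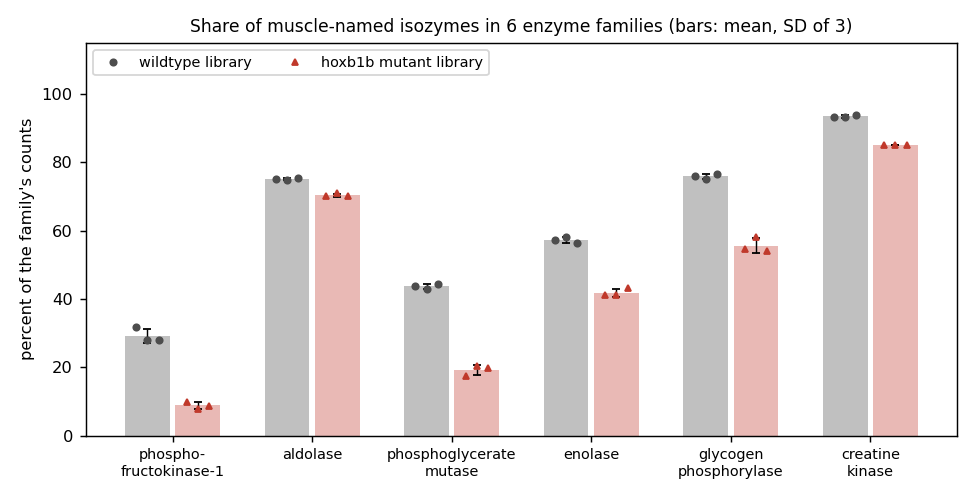
Percent of the counts of each enzyme family held by its muscle-named genes, in WT (grey) and *hoxb1b* mutants (red). Bars are means, error bars are SDs and points are the 3 libraries of each genotype; in all 6 families the mutant points lie below the WT points.

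Markers of differentiated muscle moved in the same direction. Of 45 genes of differentiated skeletal muscle in the table, 43 passed as lower (33.6% of all genes) and 30 were called lower (6.66% of all genes). The median log2 fold change over the 45 was -1.34. Their summed level was 30065 to 30442 CPM in WT and 12887 to 13112 CPM in mutants, 0.43 of the WT mean, and no marker of the list was at 0 in a genotype. *actc1b*, the muscle actin with most counts, had a log2FC of -1.47, and *atp2a1*, the calcium pump of muscle, one of -1.63. The list was uneven, with log2 fold changes from -2.20 to 0.12. The myosin gene *myhz1.1* fell by 1.86 on the log2 scale, while *smyhc1* (-0.55) and *smyhc3* (-0.42) fell less and *smyhc2* rose (0.12). The actins *actc1a* (-0.38) and *acta1a* (-0.28) also fell less. The summed level includes high-count genes that fell less, such as *actc1a* (means of 1982 CPM in WT and 1523 CPM in mutants) and *smyhc1* (1822 and 1247 CPM). Percentages of it thus depend on the genes listed. The myosin light chain gene *mylpfa* (log2FC -1.57) fell about as much as *ckma* and *ckmb* (-1.58 each). Relative to this sum, *ckma* and *ckmb* together amounted to 8.70% to 9.08% in WT and 6.90% to 6.97% in mutants. For *eno3* these values were 0.761% to 0.82% in WT and 0.584% to 0.619% in mutants, and for *aldoab* 1.98% to 2.03% and 1.78% to 1.92%. All 11 muscle-named members together amounted to 15.8% to 16.3% in WT and 20.1% to 20.6% in mutants, and without *aldoaa*, which rose, the other 10 amounted to 12.02% to 12.4% in WT and 9.75% to 9.98% in mutants. The part of muscle content in the members' values was not tested.

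Other marker lists moved to different degrees. Of 21 genes of presomitic mesoderm and tailbud, the tissue from which somites and later muscle form, 20 passed as higher (32.6% of all genes). Of the 21, 12 were called higher (1.70% of all genes), and the median log2 fold change was 1.02. The list summed to 889 to 902 CPM in WT and 1347 to 1364 CPM in mutants. Of 16 myogenic transcription factors, 7 passed as higher (32.6% of all genes), 6 as lower (33.6% of all genes) and 0 were called. Their median was 0.0026, with *myf5* at 0.97 and *pax7a* at -0.76. Of 23 genes of early neurons, 19 passed as lower (33.6% of all genes), 1 as higher (32.6% of all genes) and 3 did not pass. Of the 23, 6 were called lower (6.66% of all genes). The neuron list summed to 2044 to 2100 CPM in WT and 1565 to 1582 CPM in mutants. Of 12 neural progenitor genes, 7 passed as higher (32.6% of all genes), 3 as lower (33.6% of all genes) and 0 were called. The progenitor list summed to 1341 to 1356 CPM in WT and 1427 to 1446 CPM in mutants. Of 12 erythroid and endothelial genes, 8 passed as lower (33.6% of all genes) and 2 as higher (32.6% of all genes). The 5 called lower (6.66% of all genes) were erythroid, namely *hbbe1.1*, *hbbe2*, *hbbe3*, *hbae3* and *slc4a1a*. The erythroid genes did not all fall alike. *alas2* fell without being called (-0.90), and *gata1a* overlapped between the genotypes and did not pass (0.01, adjusted p = 0.909 from edgeR). No endothelial gene of the list was called, and these went both ways, as in *cdh5* (-0.61) and *etv2* (0.46). The list's sum, in which globin genes weighed most, was 1644 to 1681 CPM in WT and 657 to 670 CPM in mutants. A difference in stage between the pools and an effect of the genotype cannot be told apart, and the part of these lists in the members' values was not tested.

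**Figure D4:**
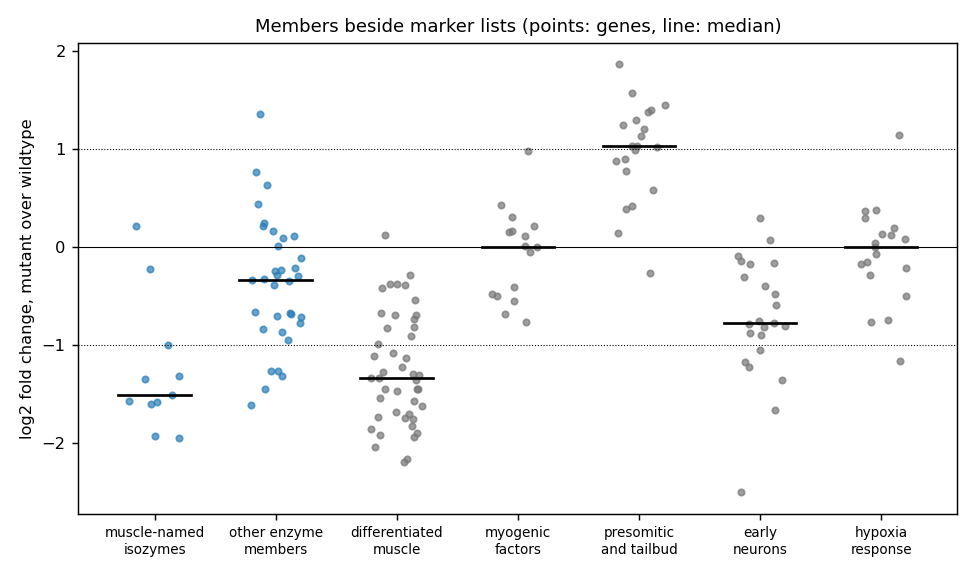
Log2 fold change, mutant over WT, of single genes (points) with list medians (lines), for the muscle-named and other enzyme members (blue) and for marker lists (grey). The muscle-named members (median -1.52) lie near the differentiated muscle markers (median -1.34), and the presomitic and tailbud genes (median 1.02) lie above 0.

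Over all lists of the wider pathway, 98 genes were tested, and 41 passed as lower (33.6% of all genes) and 28 as higher (32.6% of all genes). Of the 98, 8 were called lower (6.66% of all genes) and 3 higher (1.70% of all genes), which is near the shares over all genes. Their median log2 fold change was -0.09. Glucose and lactate transport went both ways among 11 genes. The glucose transporter *slc2a11b* was called lower, from 36.1 ± 1.73 to 11.8 ± 0.81 CPM, with a log2FC of -1.62. The lactate and pyruvate transporter *slc16a1a* was called lower, from 2.06 ± 0.3 to 0.873 ± 0.206 CPM, while its paralog *slc16a1b* rose (log2FC 0.15 ± 0.03 SE, edgeR adjusted p = 0.000286). *bsg*, which brings these transporters to the membrane, rose by 0.15 on the log2 scale.

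Of 11 genes for pyruvate entry into mitochondria, 6 passed as lower (33.6% of all genes), 1 as higher (32.6% of all genes) and 0 were called. Their log2 fold changes lay between -0.35 and 0.21. The pyruvate dehydrogenase subunit gene *pdha1a* did not pass (-0.03, adjusted p = 0.368 from edgeR), and *dldh*, a further component of the complex, fell by 0.11 on the log2 scale. Of 14 genes of the glycerol phosphate and malate shuttles, 9 passed as lower (33.6% of all genes) and 2 as higher (32.6% of all genes). *gpd1a* was called lower (-1.02), and the malate dehydrogenases *mdh2* and *mdh1aa* fell by 0.40 and 0.58 on the log2 scale.

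Gluconeogenesis, which runs the pathway backwards, contained genes called in both directions. Of its 10 genes, 5 passed as lower (33.6% of all genes) and 4 as higher (32.6% of all genes), with a median log2FC of -0.28. Of the 10, 2 were called lower (6.66% of all genes) and 2 higher (1.70% of all genes). *pck2*, the mitochondrial enzyme that makes phosphoenolpyruvate, rose from 77.5 ± 0.858 to 163 ± 1.16 CPM (log2FC 1.07 ± 0.03 SE, edgeR adjusted p = 1.75e-23). *g6pca.2*, which frees glucose from its phosphate, rose from 24.5 ± 0.963 to 52.01 ± 1.34 CPM (log2FC 1.08 ± 0.04 SE, edgeR adjusted p = 8.76e-19). By contrast, the muscle-type fructose bisphosphatase *fbp2* (-1.36) and *g6pc3* (-1.18) were called lower, both below 6 CPM. *pcxb*, a pyruvate carboxylase, and the fructose bisphosphatase *fbp1b* rose by 0.30 and 0.73 on the log2 scale. The summed level of the 10 genes was 287 to 289 CPM in WT and 439 to 442 CPM in mutants. Genes with more counts weigh more in this sum. Of 13 genes of the yolk syncytial layer and plasma proteins, 8 passed as higher (32.6% of all genes) and 3 as lower (33.6% of all genes). Their sum was 4793 to 4887 CPM in WT and 5954 to 6003 CPM in mutants. Their part in these values was not tested.

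Of 15 glycogen genes, 7 passed as lower (33.6% of all genes) and 1 as higher (32.6% of all genes), and 1 was called lower (6.66% of all genes). *ugp2a*, which makes the UDP-glucose for glycogen, fell from 5.42 ± 0.389 to 1.24 ± 0.168 CPM (log2FC -2.15 ± 0.15 SE, edgeR adjusted p = 3.9e-13), while its paralog *ugp2b* rose (0.15). *pgm1*, which turns the product of phosphorylase into glucose-6-phosphate, fell by 0.55 on the log2 scale. Of 9 creatine synthesis, creatine transport and adenylate kinase genes, 4 passed as higher (32.6% of all genes) and 3 as lower (33.6% of all genes). Their median log2FC was 0.10, and 1 was called lower (6.66% of all genes). *ak1*, the cytosolic adenylate kinase that like creatine kinase buffers ATP, fell from 141 ± 7.46 to 50.4 ± 0.565 CPM (log2FC -1.49 ± 0.04 SE, edgeR adjusted p = 2.12e-24). *gatm*, which starts creatine synthesis, rose by 0.40 on the log2 scale.

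Of 7 tested genes of the pentose phosphate branch, 4 passed as higher (32.6% of all genes) and 1 as lower (33.6% of all genes), and the most highly counted, *tktb*, did not pass (log2FC 0.02 ± 0.02 SE, edgeR adjusted p = 0.579). *taldo1* rose by 0.19 on the log2 scale. The hypoxia response in mammals raises PFKFB3 and most glycolytic enzymes. Of its 19 genes here, 5 passed as higher (32.6% of all genes), 6 as lower (33.6% of all genes) and 8 did not pass. Their median log2 fold change was -0.0035. *egln3*, an oxygen-sensing hydroxylase that is itself induced by hypoxia, was called higher, from 11.3 ± 0.363 to 25.3 ± 1.88 CPM. *epas1b*, a hypoxia-inducible factor gene, was called lower (-1.17), and *hif1al* and *hif1ab* fell by 0.29 and 0.07 on the log2 scale. The list mixes regulators such as *epas1b* with induced genes such as *egln3*, so its median describes neither kind alone. The part of hypoxia in the members' values was not tested.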

How the data were processed

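RNA-seq libraries of pooled embryos at 18 hpf, 3 WT and 3 *hoxb1b* mutant, were analysed. The authors deposited estimated counts per gene and library, without normalization, in a table whose rows hold at least 11 counts in all. The submitters' processing notes name FastQC, RSEM 1.2.28, DESeq2 and the builds GRCz10 and danRer7, without roles. The table also holds the authors' own fold changes and adjusted p-values, which were not used.

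Counts were rounded (44.3% of rows had a fractional count) and fitted over all genes in edgeR 4.0.16 (R 4.3.3; filterByExpr, TMM, glmQLFit, glmQLFTest) with 1 factor, genotype, and Benjamini-Hochberg adjustment over 12471 genes. The 2-fold criterion follows the study's methods. A standard error is the log2 fold change divided by the square root of F. The fits were tested on simulated data. Members and lists were chosen with earlier results of these data known. All members may be named; values per library are given for each called member and the member with most counts at each step; of pathway lists, called genes and at most 2 others, those with most counts, are named. A member and a pathway gene are counted but not reported here by name. Figures used matplotlib 3.10.9. Alternatives were other scalings, DESeq2 1.42.0, other filters and criteria, unrounded counts, a replicate block, an assumed coefficient of variation of 0.2 and leaving out each library. The 48 symbols are all in RefSeq (GRCz12tu), whose coordinates belong to another build and were not used; sequences were not used here. Neither GC content nor transcript length was used.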

Additional observations from a re-analysis of the deposited data

How the results depend on the processing

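The count of 14 members called lower lay between 12 and 14 under the other scalings, filters and tests, and 13 to 14 when single libraries were omitted, and the 1 called higher remained *pfkfb3* throughout. The member lost was *ckmt2b*, joined by *pfkfb2a* with glmTreat. With a fold change above 1.5 as the criterion, 23 members were called lower and 3 higher. With an assumed coefficient of variation of 0.2 between pools, 20 members passed as lower and 2 (*pfkfb1* and *pfkfb3*) as higher, against 32 and 10. Under that assumption 13 members were called lower. Over all genes, 1590 then passed in either direction and 802 were called lower. With the replicate block 13 members were called lower and 32 and 10 passed, while over all genes 836 were called lower and 8155 passed. The block changed no other call of a member. Same-numbered libraries did not deviate together (correlations 0.0552, 0.0183 and -0.0044 across genes), and 1 of 3 WT libraries correlated best with its own number. With so few libraries this cannot show whether same-numbered ones shared a batch. Replicate numbers are those of the sample titles, and the mutant columns carry other numbers. *hk1* changed sign without WT replicate 1 (-0.00077) and without WT replicate 2 (-0.0016), with a highest value of 0.042 when other libraries were omitted, and passed as higher with total count scaling (0.06), as did *pygb* (0.14). *pygmb* and *ldhd* did not pass with DESeq2. Counts limit *pfkma*, *pfkfb2a* and *ckmt2b*, at 16 to 107 per library.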
